A study of Mus musculus with 4 samples.

Results

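Genes of iron handling were examined in tumor-associated macrophages (TAMs) from mice treated with propranolol, a nonselective blocker of the beta-adrenergic receptors. A set of 8 genes was chosen by symbol: the ferritin chains Fth1 and Ftl1, the ferritin cargo receptor Ncoa4, the transferrin receptor Tfrc, the metal transporter Slc11a1, the heme degrading enzyme Hmox1, the reductase Blvrb and the iron exporter Slc40a1. All 8 were found among the 54146 genes of the count table, and all 8 passed the filter on low counts, as did 14688 genes in total. The TAMs were live CD11b+ F4/80+ cells, sorted from the CD45+ fraction of subcutaneous tumors of MCA205, a mouse fibrosarcoma line. The hosts were female C57BL/6 mice of 8 to 16 weeks of age. Both groups carried the same tumor. The propranolol group (n = 2 libraries) drank water with 0.5 g/L propranolol hydrochloride from the day of inoculation, and the control group, labelled vehicle (n = 2), did not receive the drug. The study calls the pairs biological replicates, but the labels do not say whether a library came from 1 mouse or from several, so p-values measure only the spread between these samples. Total counts were 13798249 and 23018142 for control and 39818103 and 16424081 for propranolol.

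Macrophages take up iron bound to transferrin, and they recover iron from the heme of engulfed red blood cells. Heme oxygenase opens the heme ring and releases the iron, which is stored inside ferritin, a shell of heavy and light chains, or leaves the cell through ferroportin, the product of Slc40a1. Iron regulatory proteins bind a short RNA hairpin, the iron responsive element, when iron in the cell is low. Bound to the 5′ UTR of a transcript they block its translation, and bound to the 3′ UTR of the Tfrc transcript they protect it from decay.

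Hairpins of this form were searched in the UTRs of the protein coding transcripts of GENCODE M21 on GRCm38, as a C, 5 bases, the loop CAGTGN and 5 bases that can pair with the first 5, with G-U pairs allowed. They are shown because they divide the 8 genes. Matches were found in 4 of the 8: 1 in the 5′ UTR of Fth1, of Ftl1 and of Slc40a1, and 4 in the 3′ UTR of Tfrc. All matches are exonic, and the capitals mark the loop of 6 bases.
Fth1, 5′ UTR, chr19:9982732-9982761, plus strand: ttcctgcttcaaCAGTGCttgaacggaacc
Ftl1, 5′ UTR, chr7:45459778-45459807, minus strand: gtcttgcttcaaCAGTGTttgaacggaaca
Slc40a1, 5′ UTR, chr1:45925464-45925493, minus strand: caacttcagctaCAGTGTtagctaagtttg
Tfrc, 3′ UTR, chr16:32631219-32631248, plus strand: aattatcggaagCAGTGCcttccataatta
Tfrc, 3′ UTR, chr16:32631598-32631627, plus strand: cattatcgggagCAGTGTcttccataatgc
Tfrc, 3′ UTR, chr16:32631663-32631692, plus strand: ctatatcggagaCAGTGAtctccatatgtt
Tfrc, 3′ UTR, chr16:32631710-32631739, plus strand: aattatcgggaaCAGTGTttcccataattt

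The windows of the ferritin genes shared 26 of 30 bases, position by position. The Slc40a1 window shared 13 of 30 bases with that of Fth1. Such a match was rare: of 12632 tested protein coding genes, 26 (0.206%) had one in the 5′ UTR and 98 (0.776%) in the 3′ UTR. Tfrc was the 1 tested gene with 2 or more in its 3′ UTR. No match was found in the UTRs of Hmox1, Slc11a1, Blvrb or Ncoa4. A match is a description of the sequence, and binding was not measured.

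After propranolol, 3 of the 8 genes were higher (Blvrb 2.34-fold, Fth1 1.71-fold and Hmox1 1.62-fold) and Tfrc was 1.92-fold lower. Ftl1, Ncoa4, Slc11a1 and Slc40a1 did not meet the criterion, an adjusted p below 0.05 by the edgeR quasi-likelihood test with Benjamini-Hochberg adjustment and a change of more than 1.5-fold. Thus 4 of the 8 were called, beside 27.8% of all tested genes. The 8 genes were chosen with earlier results of these data known, so their share is not independent of those results. In the 2 directions, 12.2% of all tested genes were called higher and 15.6% lower. The median log2 fold change was 0.33 over the 8 genes and -0.02 over all tested genes. The libraries of the 2 groups did not overlap in 6 of the 8 genes, whereas the same held for 72.6% of all tested genes, so separation of the groups by itself sets no gene apart. Levels are given as CPM, the count of a gene scaled to a common library size with TMM factors, and n = 2 libraries per group throughout. Overlap of the groups was judged on this scale. The TMM factors differed by group, at 1.08 and 1.09 for control and 0.91 and 0.93 for propranolol.

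**Figure D1:**
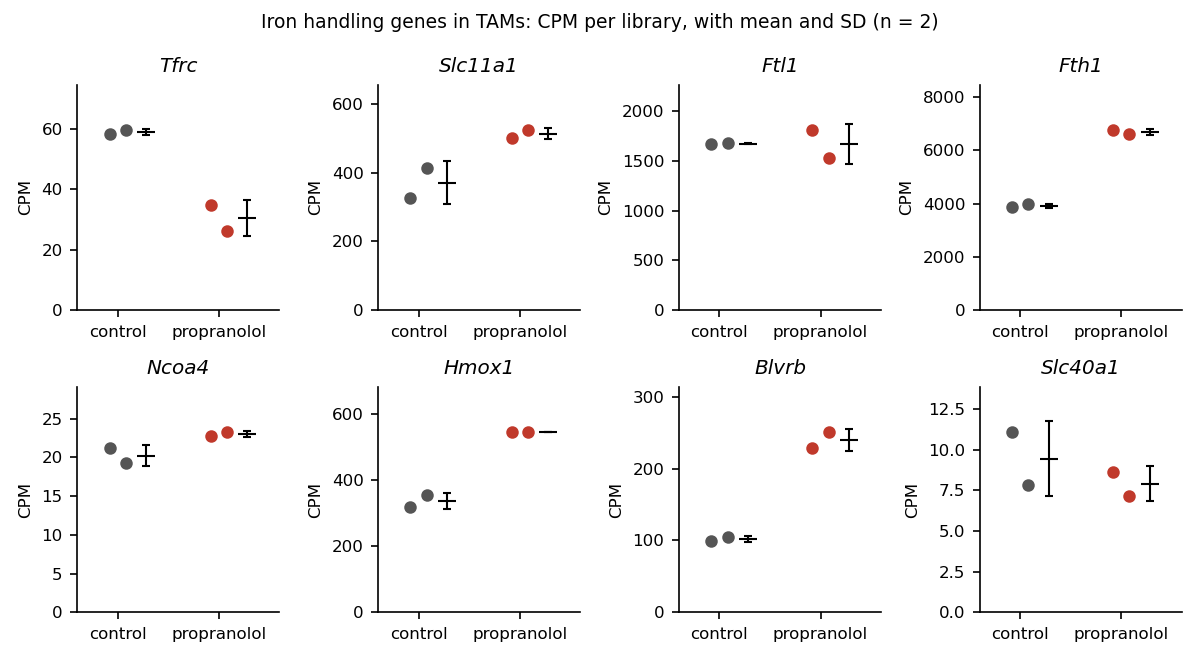
CPM (y axis, linear, from 0) of the 8 iron handling genes in each control (grey) and propranolol (red) library, with the group mean and SD (n = 2) as a black bar. The groups are separated for all genes except Ftl1 and Slc40a1, and Tfrc is the separated gene that is lower after propranolol.

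Ferritin heavy chain, which oxidizes iron as it enters the shell, is encoded by Fth1 (ENSMUSG00000024661.6, chr19:9980598-9985098). Fth1 stood at 3863.4 and 3972.3 CPM in control TAMs and reached 6782.7 and 6603.6 CPM after propranolol. Both propranolol libraries were far above both control libraries, and replicates lay close together. The log2 fold change was 0.77 ± 0.08 (SE; edgeR adjusted p = 0.000134).

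Ferritin light chain, which helps to form the iron core, is encoded by Ftl1 (ENSMUSG00000050708.16, chr7:45457944-45459884). Ftl1 was measured at 1666.8 and 1674.1 CPM in control TAMs and at 1812.9 and 1524.4 CPM in TAMs of propranolol treated mice. The control values lay between the propranolol values, so the groups overlapped in CPM. The 95% interval of the log2 fold change ran from -0.22 to 0.22 (edgeR adjusted p = 0.992), which leaves out a change of the size seen for Fth1. The chains share near-identical processed copies elsewhere in the genome, and reads that fit several places were removed by the authors' filter on mapping quality. The copies that were counted held few reads, at most 128 over all libraries (Ftl1-ps1), but the reads lost from the ferritin genes are unknown, and both levels are uncertain to that extent.

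Levels of different genes were compared per length, as TPM (counts scaled to gene length and to the sum of the library). Both ferritin genes were among the most abundant tested transcripts, at rank 21 for Fth1 and rank 24 for Ftl1. In TPM, which uses no TMM factors, Ftl1 did not overlap between the groups. It was at 4070.9 and 4208.3 TPM in control TAMs and lower, at 3733.4 and 3266.4 TPM, after propranolol. The ratio of Fth1 to Ftl1 TPM was 0.895 and 0.917 in control TAMs and 1.45 and 1.67 after propranolol. It was higher in both propranolol libraries, with a change of the log2 ratio of 0.78, although an exact permutation test of 2 against 2 libraries cannot reach 0.05. Which chain led in control TAMs depended on the length used: with all exons of a gene, mean Fth1 was 3750.9 TPM and mean Ftl1 was 4139.6 TPM, whereas with the longest transcript they were 4902.9 and 4452.3 TPM. The change of the ratio between the groups is independent of the length. Together the ferritin genes made up 88.1% and 86.8% of the summed TPM of the 8 genes in control TAMs and 86.0% and 84.7% after propranolol.

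**Figure D2:**
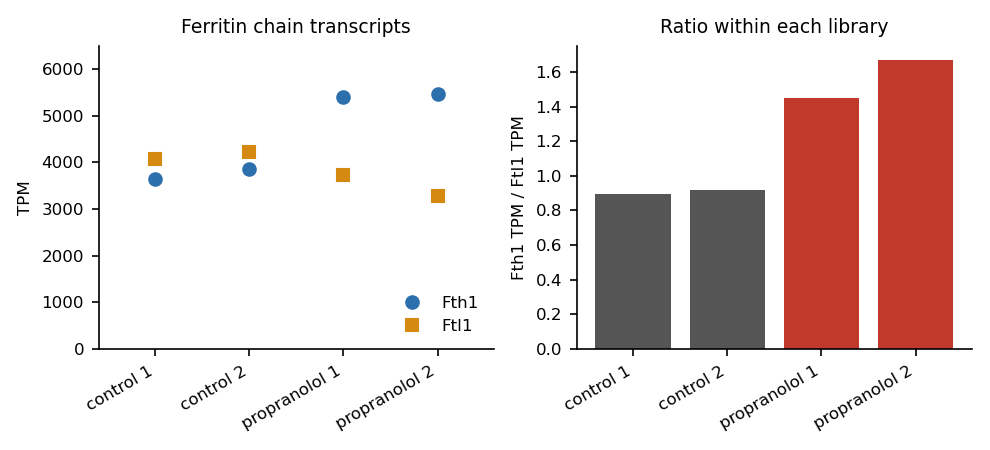
Left, TPM of Fth1 (blue circles) and Ftl1 (orange squares) in each library, by the length of all exons; right, the ratio of Fth1 to Ftl1 TPM in each library. The ratio is 0.895 and 0.917 for control and 1.45 and 1.67 for propranolol, and its absolute level depends on the transcript length used.

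Ncoa4 (ENSMUSG00000056234.15, chr14:32159865-32179855) carries ferritin to the autophagosome, a step toward release of the stored iron. Its CPM was 21.2 and 19.3 in control TAMs and 22.8 and 23.3 after treatment. The groups were narrowly separated in CPM and overlapped in TPM. The difference did not pass the test (log2 fold change 0.19, 95% interval -0.12 to 0.50, edgeR adjusted p = 0.304).

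For iron uptake, Tfrc (ENSMUSG00000022797.16, chr16:32608920-32632794) encodes transferrin receptor 1, which brings iron-loaded transferrin into the cell. Tfrc reached 58.3 and 59.7 CPM in control TAMs and 34.8 and 26.3 CPM after propranolol. Every propranolol library was below every control library. The log2 fold change was -0.94 ± 0.14 (SE; edgeR adjusted p = 0.000794). Of the 3 genes with a 5′ hairpin, Fth1 was called higher, and Ftl1 and Slc40a1 were not called. The ratio of Fth1 to Tfrc TPM was 118.2 and 118.6 in control TAMs and 347.0 and 448.3 after propranolol. Tfrc did not keep its call after a correction for GC content, as described below. With that correction Tfrc was at -0.18 and Fth1 at 0.65 on the log2 scale, so the ratio of Fth1 to Tfrc would change less.

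Slc11a1 (ENSMUSG00000026177.11, chr1:74375195-74386062) encodes a transporter that pumps divalent metals out of the phagosome. C57BL/6 mice carry an allele of this gene that gives a nonfunctional protein, so the transcript does not stand for transport in these hosts. Its CPM was 327.5 and 414.4 in control TAMs and 501.5 and 525.0 in TAMs from propranolol treated mice. The groups did not overlap in CPM, with a wide gap between the control libraries, but they overlapped in TPM. The change of 1.38-fold passed the test (log2 fold change 0.47 ± 0.12 (SE), edgeR adjusted p = 0.01) but was below 1.5-fold. Without control replicate 2 it was 0.66 on the log2 scale and met both criteria.

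In heme breakdown, Hmox1 (ENSMUSG00000005413.8, chr8:75093621-75100589) encodes heme oxygenase 1, the inducible enzyme that turns heme into biliverdin, carbon monoxide and iron. Hmox1 was found at 319.7 and 354.6 CPM in control TAMs, compared to 545.1 and 545.4 CPM in treated mice. Both propranolol values exceeded both control values, by much more than the gap within either group. The log2 fold change was 0.69 ± 0.10 (SE; edgeR adjusted p = 0.000468). As for Tfrc, the call was lost after the GC correction (0.35). Hmox2, the constitutive heme oxygenase, was at a mean of 71.6 CPM in control and 69.2 CPM in propranolol TAMs (log2 fold change -0.04, edgeR adjusted p = 0.812).

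Blvrb (ENSMUSG00000040466.16, chr7:27447978-27466144) encodes biliverdin reductase B, which also reduces flavins. It rose the most among the 8 genes, from 99.7 and 105.4 CPM in controls to 229.0 and 251.0 CPM with propranolol. The lower propranolol library was still above the higher control library by more than the whole spread within the groups. The log2 fold change was 1.23 ± 0.10 (SE; edgeR adjusted p = 0.000103). Blvra, which encodes the main biliverdin reductase of adult tissue, was at 46.6 CPM in control and 41.3 CPM in propranolol TAMs on average (log2 fold change -0.17, edgeR adjusted p = 0.33). The 2 called enzymes rose by different amounts: Blvrb TPM was 0.196 and 0.187 of Hmox1 TPM in control TAMs and 0.264 and 0.290 after propranolol.

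Slc40a1 (ENSMUSG00000025993.10, chr1:45908068-45926523) encodes ferroportin, the known exporter of iron from cells. It was the least abundant of the 8 per length, at a mean of 3.48 TPM in control and 2.47 TPM in propranolol TAMs. On the CPM scale it was at 11.1 and 7.81 in controls and at 8.66 and 7.14 with propranolol, with 109 to 315 counts per library. The control libraries enclosed the higher propranolol library, and the control gap was wider than the difference of the means. In TPM both propranolol libraries (2.66 and 2.28) lay below both control libraries (4.05 and 2.92). The log2 fold change was -0.24 with a 95% interval from -0.77 to 0.29 (edgeR adjusted p = 0.45), so a change of 1.5-fold in the lower direction cannot be told from none with this spread between libraries. Without control replicate 1 the value was 0.08.

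Fold changes across all genes followed the GC content of the transcript, and the 8 genes span that range, from 39.8% in Tfrc to 58.1% in Ftl1. When all tested genes were split into 10 classes of equal size by GC content, the median log2 fold change rose from -0.94 in class 1, the lowest in GC, to 0.47 in class 9, and was 0.46 in class 10. Tfrc, in class 1, was at the median of its class with -0.94. Slc11a1, in class 9, was at 0.47 as well. Fth1 (0.77), Hmox1 (0.69) and Blvrb (1.23) were each above the upper quartile of their own class, at 0.40, 0.54 and 0.62, and Ftl1 was below the lower quartile of its class, at 0.03. Slc40a1 (-0.24) and Ncoa4 (0.19), at 42.0% and 45.3% GC, were above the upper quartiles of their classes, at -0.28 and -0.03.

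**Figure D3:**
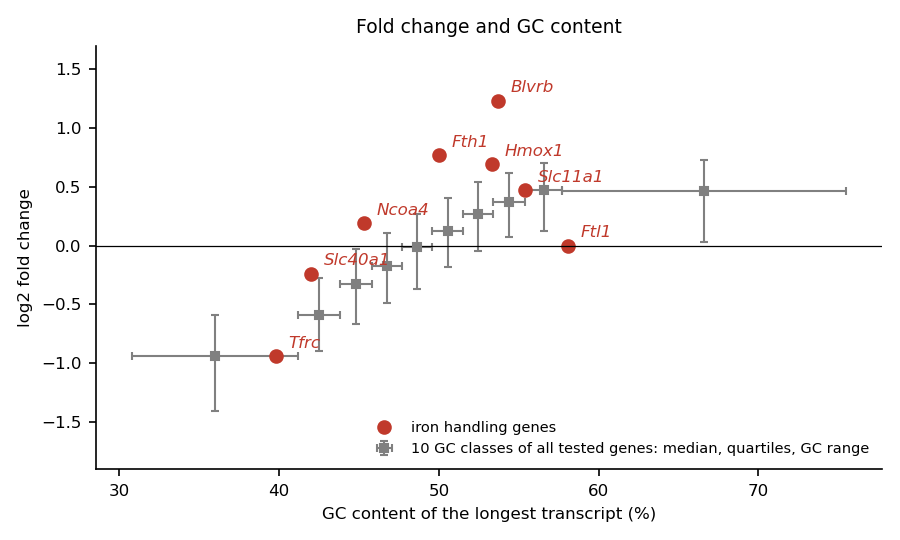
Log2 fold change, propranolol over control, against the GC content (%) of the longest transcript for the 8 iron handling genes (red). Grey squares are medians of 10 classes of all tested genes by GC, with quartiles as vertical bars and the GC range of the class as horizontal bars. Tfrc and Slc11a1 lie at the median of their classes, Fth1, Hmox1, Blvrb, Ncoa4 and Slc40a1 above the upper quartile of theirs, and Ftl1 below the lower quartile.

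With this trend removed from each library, 2 of the 8 genes were called, both higher, beside 10.8% of all tested genes. These were Blvrb (log2 fold change 0.86 ± 0.09 (SE), edgeR adjusted p = 0.000577) and Fth1 (0.65 ± 0.09 (SE), edgeR adjusted p = 0.00162). Hmox1 was at 0.35 (edgeR adjusted p = 0.0275), which is under 1.5-fold. Tfrc was at -0.18 with a 95% interval from -0.46 to 0.10 (edgeR adjusted p = 0.353). Ftl1 was at -0.46 (edgeR adjusted p = 0.0226), under 1.5-fold, and Slc11a1 at 0.04 (edgeR adjusted p = 0.831). Ncoa4 was at 0.43 with a 95% interval from 0.13 to 0.73 (edgeR adjusted p = 0.0507). With the replicate block added Ncoa4 was again at 0.43 (edgeR adjusted p = 0.0277), under 1.5-fold. Slc40a1 was at 0.29 (edgeR adjusted p = 0.411). The GC trend ran between the groups, so its source and the treatment cannot be told apart in these libraries.

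**Figure D4:**
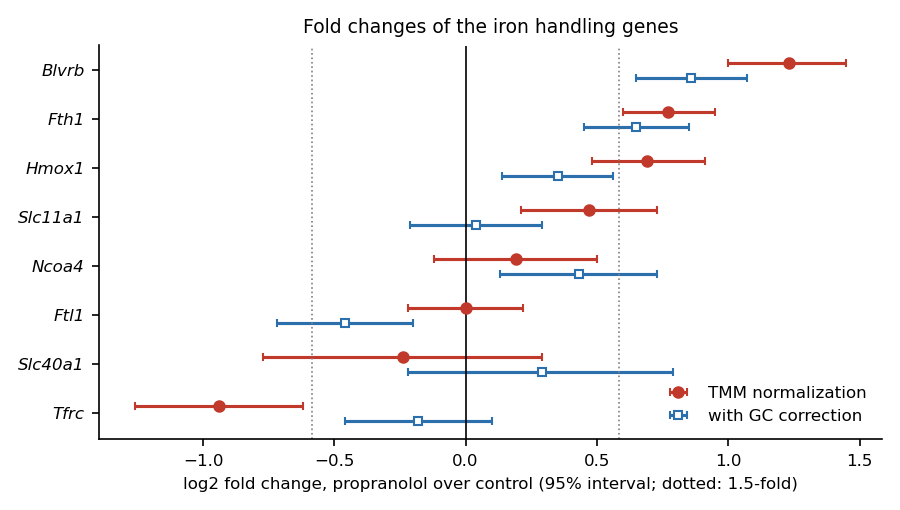
Log2 fold change of each iron handling gene (x axis) with its 95% interval, with TMM normalization (red circles) and with the GC correction (open blue squares). Dotted lines mark 1.5-fold. Blvrb and Fth1 are called in both, Hmox1 and Tfrc only without the correction, and the sign of Slc40a1 turns from -0.24 to 0.29.

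A wider set of 72 genes of iron and heme handling was grouped by role. Of these, 61 were tested, and 24 were called, 18 higher and 6 lower, and the median over the 61 was 0.19 on the log2 scale. The called share was 39.3%, beside 27.8% of all tested genes (12.2% higher and 15.6% lower). The wider set, too, was chosen with earlier results of these data known. With the GC correction 10 were called, 9 higher and 1 lower, of which 8 were among the 24, beside 10.8% of all tested genes.

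Scavenging of hemoglobin and heme was the role in which all tested genes were called in 1 direction, with 5 of 5 higher. Lrp1, a large endocytic receptor that also takes up heme bound to hemopexin, was the most abundant. Lrp1 was measured at 2070.0 and 2305.1 CPM in control TAMs and at 4393.6 and 5885.2 CPM in propranolol TAMs (log2 fold change 1.23 ± 0.13 (SE), edgeR adjusted p = 0.000148). Hp, encoding haptoglobin, which binds free hemoglobin, had 7.01 and 8.45 CPM in controls and 27.3 and 27.2 CPM with propranolol. Neither gene overlapped between the groups. Cd163, the scavenger receptor for the complex of haptoglobin and hemoglobin, went from 29.5 and 21.2 CPM to 42.5 and 56.1 CPM, a change of 1.95-fold (edgeR adjusted p = 0.00233). Slc48a1, which moves heme out of the phagolysosome, and Slc46a1, a transporter of folate and heme, rose by 1.51-fold and 1.55-fold. After the GC correction 3 of the 5 were called, namely Lrp1, Hp and Cd163.

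Among 11 tested genes of iron entry and ferrireduction, 3 were called higher and 1 lower. Steap3, the reductase that prepares endosomal iron for transport, rose 1.75-fold, from a mean of 37.0 CPM to 64.6 CPM, whereas Tfrc, which delivers that iron, was lower. Lcn2, encoding a protein that binds iron-loaded siderophores, rose from a mean of 1.13 CPM to 5.91 CPM and Steap4 from 1.21 CPM to 3.22 CPM. Both were low, and Lcn2 and Hp are also known products of neutrophils, whose markers were higher in the propranolol libraries (below), although the sort on F4/80 selects against these cells. Their part in these values was not tested. Steap2 was 3.68-fold lower, with control libraries at 7.55 and 3.47 CPM and propranolol libraries at 1.40 and 1.57 CPM. The sum of the fibroblast markers (below) was likewise lower after propranolol and highest in control replicate 1. The part of fibroblasts or tumor cells in the Steap2 values was not tested. With the GC correction Lcn2 and Steap4 were called, Steap3 (0.48) and Steap2 (-1.08, edgeR adjusted p = 0.101) were not, and the metal importer Slc39a8 was called higher (0.68). The gene of this role with the highest CPM, Slc39a14, another metal importer, was at 0.42 on the log2 scale, under 1.5-fold. Per length Trf, encoding transferrin, led in control TAMs (mean 34.7 TPM) and Steap3 after propranolol (mean 31.9 TPM, against 28.7 TPM for Trf). Slc11a2, the transporter that moves iron out of the endosome, was at 0.05 (edgeR adjusted p = 0.787).

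In heme breakdown and heme export, Por was called higher and Abcg2 lower out of 5 tested. Por, the reductase that supplies electrons to heme oxygenase, had 115.4 and 119.0 CPM in control TAMs and 263.0 and 274.1 CPM after propranolol (log2 fold change 1.20, edgeR adjusted p = 0.000103). It was called after the GC correction as well. Abcg2, a porphyrin exporter, was 1.61-fold lower, but with the GC correction its log2 fold change turned to 0.15 (edgeR adjusted p = 0.671). In heme synthesis 3 of 9 tested genes were higher and none lower. These were Alas1, the first and rate-limiting enzyme outside red blood cells (1.65-fold), Alad (1.78-fold) and Urod (1.74-fold), and none of the 3 was called with the GC correction.

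Of 4 tested genes of storage and ferritinophagy, Pcbp1, an RNA binding protein that delivers iron to ferritin, rose from 329.4 and 315.3 CPM to 510.7 and 518.0 CPM. It was at 0.21 on the log2 scale after the GC correction. Pcbp2, a related chaperone, was at 0.50 without and at 0.94 with the correction, and was called with it. Ftmt, mitochondrial ferritin, had no counts in any library.

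Of the genes of iron export and the hepcidin axis, 2 were tested and both were called, in opposite directions. Cp, encoding ceruloplasmin, which oxidizes iron as ferroportin releases it, fell from 41.3 and 53.6 CPM to 22.1 and 18.3 CPM (2.34-fold lower, edgeR adjusted p = 0.00035). Hfe, which encodes a partner of the transferrin receptor, rose from 145.0 and 138.8 CPM to 221.6 and 218.9 CPM (1.55-fold, edgeR adjusted p = 0.000687). Both were called with the GC correction. Hamp, encoding hepcidin, did not pass the filter on low counts.

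The proteins that bind the hairpins shown above are encoded by Aco1 and Ireb2. Ireb2 was at 68.9 and 64.7 CPM in control TAMs and at 30.8 and 25.1 CPM after propranolol, 2.37-fold lower (edgeR adjusted p = 0.000149). With the GC correction the log2 fold change of Ireb2 was -0.39 and was not called. Aco1, the most abundant gene of this role, was at 0.31, under 1.5-fold. Fbxl5, which marks the Ireb2 product for degradation when iron is plentiful, was at -0.11 (edgeR adjusted p = 0.448).

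Among 12 genes of mitochondrial iron and iron-sulfur clusters, 2 were called higher and 1 lower. Slc25a28, a mitochondrial iron importer, rose 1.66-fold, from a mean of 40.7 CPM to 67.9 CPM (edgeR adjusted p = 0.000917). Iscu, the scaffold on which clusters are built, led per length in both groups and was at 0.04. By mean CPM Iscu led in control TAMs (56.3) but not after propranolol (57.8, against 67.9 for Slc25a28). Of 9 transcriptional regulators, Keap1 (1.56-fold) and Mafk (1.68-fold) were called higher and Hif1a 1.63-fold lower. Bach1, the repressor that heme removes from the Hmox1 gene, was at -0.03 (edgeR adjusted p = 0.842). Nfe2l2, the activator that Keap1 restrains, led per length in both groups and was at -0.41 (edgeR adjusted p = 0.0099), under 1.5-fold. By mean CPM Nfe2l2 led in control TAMs (199.2) but not after propranolol (150.4, against 167.1 for Bach1). No gene of these 2 roles was called with the GC correction.

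**Figure D5:**
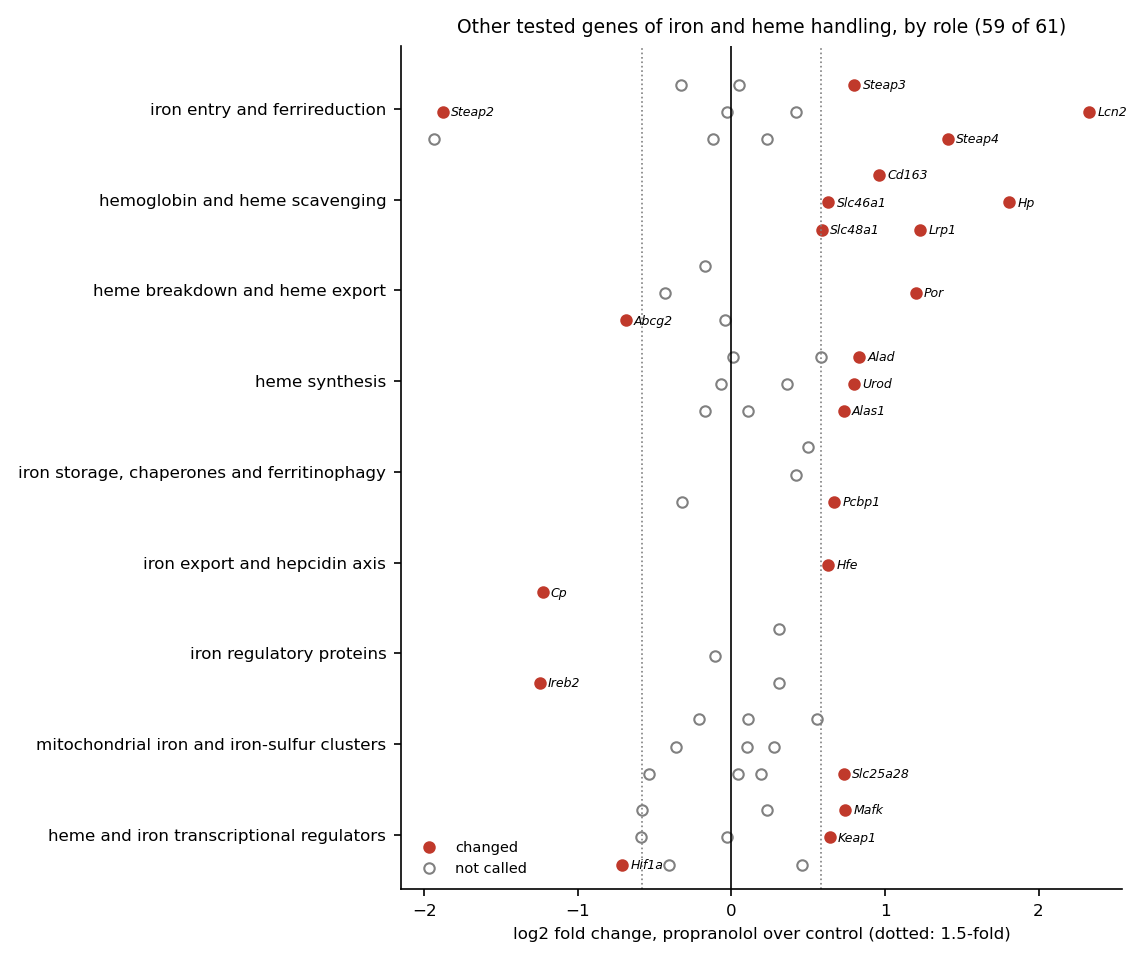
Log2 fold change, propranolol over control (x axis), of 59 of the 61 other tested genes of iron and heme handling, by role (y axis; vertical scatter within a role has no meaning). Red points are called by edgeR, grey open points are not, and dotted lines mark 1.5-fold. All 5 genes of hemoglobin and heme scavenging lie on the right.

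The identity of the cells was checked with marker genes. Adgre1, encoding F4/80, was at 975.3 and 1008.2 CPM in control and at 1151.1 and 1100.0 CPM in propranolol TAMs, and Itgam, encoding CD11b, was between 312.8 and 369.0 CPM in all libraries. Neither passed the test. The summed CPM of 8 macrophage markers was 15052.3 and 14361.5 in control and 18218.0 and 16406.4 in propranolol libraries, with Lyz2 as the most abundant. Csf1r was the 1 that was called, higher. With the GC correction Csf1r was not called (0.20, edgeR adjusted p = 0.165), and C1qa was called lower (-0.63, edgeR adjusted p = 0.00342). Of 6 monocyte markers 2 were called higher, with sums of 639.1 and 547.6 CPM in control and 590.9 and 494.2 CPM in propranolol libraries. Ccr2 was highest in CPM. Per length Ccr2 led in control libraries (mean 208.9 TPM, against 146.1 TPM for Plac8), and Plac8, which was called higher, led in propranolol libraries (213.0 against 118.2 TPM).

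Markers of other cells moved with the groups. T cell markers were lower after propranolol in 6 of 7 tested (sums of 192.9 and 227.5 CPM against 97.8 and 55.8 CPM, highest in CPM Cd8a and per length Trac). NK cell markers were lower in 5 of 5 (49.8 and 50.3 CPM against 13.3 and 6.48 CPM). Of these Klrd1 led per length in both groups. By mean CPM Klrd1 led in control libraries (22.9) but not in propranolol libraries (2.21, against 3.06 for Eomes). Fibroblast markers, which MCA205 cells can share, were lower in 6 of 7, with sums of 2847.9 and 1121.7 CPM in control and 663.9 and 701.4 CPM in propranolol libraries. Col3a1 was highest by mean CPM over the 4 libraries and Col1a1 per length. Control replicate 1 stood apart in this sum, but control replicate 2 was also above both propranolol libraries. Without control replicate 1, the log2 fold changes were 0.68 for Hmox1, 0.81 for Fth1, -0.9 for Tfrc and 1.24 for Blvrb. That fit keeps the difference in fibroblast markers between the groups, so it cannot show what part these cells have. Dendritic cell markers were lower in 2 of 6 (26.8 and 28 CPM against 17.4 and 16.2 CPM, most abundant Ccr7).

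Neutrophil markers were higher in 5 of 6 tested, with sums of 176.3 and 194.6 CPM in control and 349.6 and 377.1 CPM in propranolol libraries. Csf3r had the highest CPM and was not called. S100a9 led per length, at a mean of 128.1 TPM in control and 448.3 TPM in propranolol libraries, with a log2 fold change of 2.04 (edgeR adjusted p = 6.05e-05). The defining marker Ly6g had 0, 2, 17 and 8 counts in control 1, control 2, propranolol 1 and propranolol 2. Camp, the other neutrophil marker that did not pass the filter, did not rise, with 0, 6, 1 and 1 counts in the same order. B cell markers had 1 called higher and 1 lower of 2 tested (9.98 and 13.5 CPM against 20.3 and 19.7 CPM, most abundant Cd79b). Of 4 tested endothelial markers 1 was higher (45.1 and 41.8 CPM against 57.9 and 52.3 CPM, most abundant Pecam1). With the GC correction no B cell or endothelial marker was called, and 4 neutrophil markers were called higher. Under it 6 T cell, 5 NK cell, 6 fibroblast and 2 dendritic cell markers were called lower. The sort on CD45, CD11b and F4/80 selects against T cells, NK cells, neutrophils and fibroblasts, whose markers were nevertheless counted, and the part of other cells in the results was not tested. In sorted bulk samples, fewer cells of a type and less RNA per cell cannot be told apart.

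Transcripts of red blood cells and their precursors bear most closely on heme. None of 6 tested erythroid markers was called by edgeR or DESeq2, 2 of them were below an unadjusted p of 0.05 in edgeR, and limma-voom called 1, the alpha globin Hba-a1, higher. The summed CPM was 57.5 and 35.0 CPM in control and 60.5 and 55.7 CPM in propranolol libraries. Hbb-bs, a beta globin, was the most abundant, at 35.1 and 19.8 CPM in control and 35.4 and 31.0 CPM in propranolol libraries, so the groups overlapped. The globin genes share near-identical copies, and their split is uncertain.

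The genes whose profile over the 4 libraries was closest to each called gene were found among 8861 genes with a mean of at least 10 CPM, by the root mean square difference of centred log2 CPM. For Fth1 they were Emc4 and Shmt2 (both 0.007) and Cactin (0.010). Blvrb was closest to Slfn4 (0.017), 1700037H04Rik (0.021) and Lrp5 (0.025). The nearest to Hmox1 were Supt5 (0.012), Tango2 (0.015) and Xpnpep1 (0.016), and to Tfrc Dock11 (0.018), Ube2a (0.029) and Nt5c3 (0.030). With 4 libraries in 2 groups, such likeness is mostly a like difference between the groups.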

How the data were processed

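The values were fragment counts per gene, which the authors deposited as whole numbers without normalization, 1 column per library. Per the labels and methods, polyA RNA was sequenced, aligned to mm10 with STAR 2.7.1a, filtered on mapping quality with SAMtools 1.9 and counted over exons with featureCounts 1.6.4 on a GENCODE annotation; its release and a strand option are not given in the sources used here, so reads of a gene and an antisense partner cannot be told apart. Identifiers were matched to GENCODE M21 (GRCm38), which found 54079 of 54146 genes. The table held 0 entries without a gene identifier.

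Genes were filtered with filterByExpr (minimum count 10) and tested with the edgeR 4.0.16 quasi-likelihood test on TMM factors in R 4.3.3, propranolol against control without covariates. A gene was called at a Benjamini-Hochberg adjusted p below 0.05 over all tested genes and a change above 1.5-fold. SEs are the log2 fold change divided by the root of the F statistic. CPM used TMM scaled library sizes, and TPM the length of all exons. The GC correction fitted the deviation of each library against GC content with a natural spline of 5 degrees of freedom and removed the fit by offsets. The fit was tested on simulated data, but no outcome of that test is given here.

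Named were the 8 genes, every called gene and the tested gene of each role and the marker of each list with the highest mean CPM, markers at 0, and the 3 nearest profiles of each called gene; further genes named beside them were chosen after their values were seen. Members and lists were chosen with earlier results of these data known. Of 141 listed symbols 2 (Ciao3 and Ahsp) were not matched. Some listed genes are counted in their lists but not reported here by name. Alternatives were DESeq2 1.42.0, limma-voom (limma 3.58.1), other size factors, filters and thresholds, glmTreat, each library left out, the replicate number as a block, and the GC correction with and without it.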

Additional observations from a re-analysis of the deposited data

How the results depend on the processing

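Of 104 alternative values for the log2 fold changes of the 8 genes, 92 kept direction and side of the threshold. Fth1 (0.65 to 0.85) and Blvrb (0.86 to 1.30) were called in 13 of 13 alternatives, Hmox1 and Tfrc in 11 of 13. The exceptions were the GC correction and the GC correction with replicate block, which gave 0.35 and 0.35 for Hmox1 and -0.18 and -0.19 for Tfrc; the cause was not tested. Slc40a1 reversed to 0.29 and 0.28 under the same corrections and ranged from -0.47 to 0.08 with 1 library left out (0.08 without control replicate 1). Ftl1 reversed to 0.07 without a filter, 0.05 and 0.02 without control replicate 1 or 2 and 0.15 without propranolol replicate 2, and was -0.13 without propranolol replicate 1. Slc11a1 was called without control replicate 2 (0.66).

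The count of called genes among the 8 was 4, and 2 with the GC correction with or without replicate block, 0 at a log2 fold change above 1.5 and 1 with glmTreat; without 1 library it was 4 to 5. For all tested genes, 4084 became 1588 with the GC correction (637 higher, 951 lower), 2036 with the replicate block added, 6204 without a fold threshold, 728 at a log2 fold change above 1.5 and 1093 with glmTreat (413 higher, 680 lower); the range without 1 library was 3615 to 4329. The main setting gave 1798 higher and 2286 lower, and a log2 fold change above 1.5 gave 61 higher and 667 lower. Upper-quartile factors gave 1417 higher and 2533 lower, and no filter on low counts 2321 higher and 2145 lower. Dropping the fold threshold gave 3205 higher and 2999 lower. Higher calls also outnumbered lower ones without control replicate 1 and without propranolol replicate 2. The 24 wider iron and heme genes became 10, 14 with the replicate block added, 3 at a log2 fold change above 1.5 and 7 with glmTreat, and 21 to 24 without 1 library.

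The groups share replicate numbers, and deviations of same-numbered libraries correlated at 0.169. This is a single value with 2 groups of 2, so it cannot show whether same-numbered libraries share more than a number. The replicate block alone gave 4 of the 8, 4362 of all tested and 26 of the wider genes. With 1 library left out, the spread of the lone library was taken from the other group. Slc40a1 rests on 109 to 315 counts per library, and its control libraries differed by more than the group means, so its direction is not settled.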
